A study of Homo sapiens with 4 samples.

Results

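Serine, glycine and one-carbon enzymes were examined in the human hepatocellular carcinoma line PLC/PRF/5 after knockdown of the ubiquitin-specific protease USP22. The genes were given as a list of 10 symbols, matched to the gene column of the deposited count table, and 6 of the 10 had a row there, out of 14540 rows in all. These were the 3 enzymes of serine synthesis (PHGDH, PSAT1 and PSPH), the folate enzyme MTHFD1L, and the breakdown enzymes SDS and GLDC. Each of the 6 had a single row, which holds 1 RefSeq mRNA accession and is called a transcript here. SHMT1, SHMT2, MTHFD2 and AMT were not analysed here.

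The study compared 2 libraries of cells with lentiviral interference of USP22 (shUSP22) with 2 libraries of control cells (NC). All 4 came from cells grown in high-glucose DMEM and kept for 48 h in an incubator at 1% oxygen and 5% carbon dioxide, so every value applies to hypoxic cells of 1 cell line. The labels do not give the number of hairpins or clones, and they do not say whether the replicates were separate cultures. The p-values therefore measure the spread between these libraries, which may be technical. In bulk RNA, fewer cells that express a gene and less RNA per cell cannot be told apart.

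Serine is made from the glycolytic intermediate 3-phosphoglycerate in a chain of reactions. PHGDH oxidises 3-phosphoglycerate, PSAT1 transfers an amino group from glutamate to the product, and PSPH removes the phosphate. Serine then gives glycine and a one-carbon unit on folate, which feeds purine, thymidylate and methionine synthesis, and the mitochondrial enzyme MTHFD1L releases such units as formate. The opposite fate is breakdown. SDS, a cytosolic enzyme of liver, deaminates serine to pyruvate, which can enter gluconeogenesis, and GLDC is the glycine decarboxylase of the mitochondrial glycine cleavage system. DMEM supplies both amino acids.

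Transcripts of the synthesis enzymes PHGDH and PSAT1 fell in USP22 knockdown cells, while those of the breakdown enzymes SDS and GLDC rose. SDS rose 5.21-fold and GLDC 1.68-fold, whereas PHGDH fell to 0.558 and PSAT1 to 0.473 of the control level. PSPH, the last enzyme of synthesis, did not pass the test and lay on the higher side. The MTHFD1L transcript fell to 0.385 of the control level but had at most 94 counts in a library. Of the 6 transcripts, all of which passed the filter on low counts, 2 rose and 3 fell by edgeR's quasi-likelihood test with a Benjamini-Hochberg adjusted p under 0.05. Among all 12337 tested transcripts 8.49% rose and 10.2% fell by the same rule. Levels are given as CPM, which are counts scaled to a TMM-normalized library size.

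**Figure D1:**
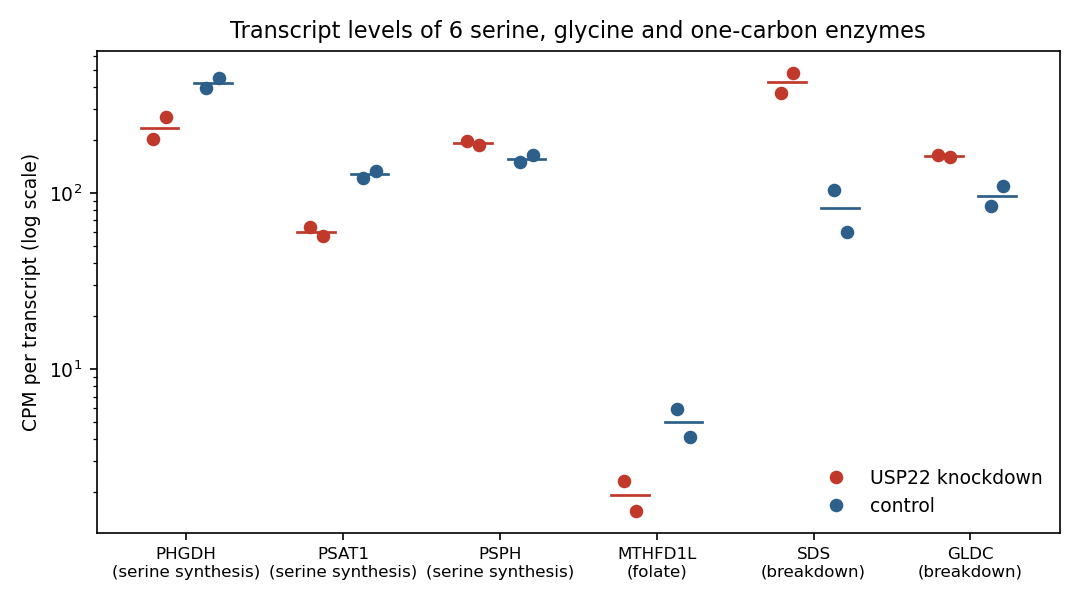
Levels in CPM (log axis) of the 6 enzymes' transcripts in each library, with USP22 knockdown libraries in red on the left of each pair, control libraries in blue on the right, and a line at the mean of 2 libraries. PHGDH, PSAT1 and MTHFD1L lie lower in both knockdown libraries, and SDS, GLDC and PSPH lie higher.

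The sequences upstream of the transcripts that moved in opposite directions are shown here, PHGDH and PSAT1 for those that fell and SDS and GLDC for those that rose. They are the 300 bases from 250 before the start site to 50 after it in RefSeq (GRCh38.p14), read 5′ to 3′ on the strand of the gene. This is not the build of the counts (hg19), and no read position enters them. Capitals mark every match to 6 short motifs described after the sequences.
PHGDH, chr1:119711684-119711983, plus strand: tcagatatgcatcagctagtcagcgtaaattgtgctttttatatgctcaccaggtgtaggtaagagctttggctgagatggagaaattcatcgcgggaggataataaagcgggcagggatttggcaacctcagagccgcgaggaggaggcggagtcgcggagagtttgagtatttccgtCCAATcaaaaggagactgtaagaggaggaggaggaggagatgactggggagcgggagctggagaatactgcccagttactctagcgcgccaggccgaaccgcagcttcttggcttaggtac
PSAT1, chr9:78296875-78297174, plus strand: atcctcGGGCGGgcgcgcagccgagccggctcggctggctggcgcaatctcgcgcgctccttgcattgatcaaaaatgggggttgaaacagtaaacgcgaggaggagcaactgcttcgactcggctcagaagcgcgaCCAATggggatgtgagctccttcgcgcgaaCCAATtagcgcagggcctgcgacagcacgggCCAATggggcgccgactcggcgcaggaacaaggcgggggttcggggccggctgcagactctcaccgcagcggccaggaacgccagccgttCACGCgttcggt
SDS, chr12:113403838-113404137, minus strand: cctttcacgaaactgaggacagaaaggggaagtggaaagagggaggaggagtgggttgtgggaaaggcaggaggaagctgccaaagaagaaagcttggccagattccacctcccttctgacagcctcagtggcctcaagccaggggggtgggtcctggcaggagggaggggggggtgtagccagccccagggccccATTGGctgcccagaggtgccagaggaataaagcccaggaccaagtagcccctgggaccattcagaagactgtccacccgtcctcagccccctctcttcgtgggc
GLDC, chr9:6645680-6645979, minus strand: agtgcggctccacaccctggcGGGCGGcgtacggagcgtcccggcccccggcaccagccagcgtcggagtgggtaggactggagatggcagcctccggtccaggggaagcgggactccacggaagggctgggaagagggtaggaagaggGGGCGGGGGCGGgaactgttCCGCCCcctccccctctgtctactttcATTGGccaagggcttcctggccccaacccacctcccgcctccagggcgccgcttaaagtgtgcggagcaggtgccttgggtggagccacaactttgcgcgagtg

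The motifs were searched on both strands. They were the cores of the hypoxia response element, ACGTG and GCGTG, the composite element read by C/EBP and ATF factors, TGATGNAA, the cAMP response element TGACGTCA, the CCAAT box CCAAT, and the GC box GGGCGG. The last 2 motifs were chosen after the sequences had been seen. CCAAT or its complement was present in all 4 windows, with 3 copies in PSAT1 and 1 each in PHGDH, SDS and GLDC, and it was found in 34.61% of the 35116 RefSeq windows of this length. In SDS and GLDC it read ATTGG and occupied the same place, positions −54 to −50, where 0 is the first transcribed base. In PHGDH it stood at −71 to −67. The share of all windows with a match at a given place was not counted. The shared place in SDS and GLDC was seen after the fact, and nothing is drawn from it. GGGCGG occurred 4 times in GLDC and 1 time in PSAT1, and in 44.95% of all windows. The hypoxia core GCGTG had 1 match, in PSAT1 (36.54% of all windows), and ACGTG had 0 (21.41%). TGATGNAA (3.62%) and TGACGTCA (1.85%) had no match in these 4 windows. A match is a string of letters and was not tested for binding.

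The libraries held between 15027209 and 17194929 counts. USP22 itself had 360 and 447 CPM in knockdown libraries and 2937 and 2573 CPM in control libraries, a log2 fold change of −2.77 ± 0.17 (SE, adjusted p = 1.36e-06), as the labels state. Of 9 hepatocyte and hepatoma markers all had a row and were tested. Their summed level was 43206 and 33849 CPM in knockdown libraries and 29274 and 27157 CPM in control libraries. AFP, APOB and KRT18 rose (3 members, 33.3%) and 0 fell, beside 8.49% higher and 10.2% lower among all tested transcripts. The median log2 fold change of the list was −0.10. APOB alone had 27525 and 16630 CPM in knockdown libraries and 11626 and 8796 CPM in control libraries. Without it the other 8 summed to 15681 and 17219 CPM in knockdown libraries and 17648 and 18361 CPM in control libraries. Both knockdown libraries were then lower, but most of this sum was TF. TF had 14063 and 15353 CPM in knockdown libraries and 16362 and 17025 CPM in control libraries. The direction of the sum is therefore not that of the markers in general. TF and TTR were below both control libraries in both knockdown libraries without passing the test, a position that 30.3% of all tested transcripts shared. Without control replicate 1 KRT18 no longer passed (0.73, adjusted p = 0.0704, range 6.52e-07 to 0.0704 over 11 alternatives). Of 13 markers of blood, endothelial, stromal and bile duct cells 8 had a row, with sums of 95.7 and 65.6 CPM in knockdown and 63.2 and 77.7 CPM in control libraries. Of these the collagen gene COL1A2 had 0 counts in both knockdown libraries and 1 and 53 in control libraries. The endothelial marker PECAM1 rose (log2 fold change 1.02) and the bile duct keratin KRT7 fell (−1.54). Other markers of these cell types leaned the other way. The endothelial CDH5 (−0.73) and the bile duct keratin KRT19 (0.37) did not pass, and their groups overlapped. The endothelial VWF, removed by the filter, had 0 and 2 counts in knockdown libraries and 7 and 9 in control libraries. The part of these markers in the results was not tested. The call of PECAM1 was lost without control replicate 2, and that of KRT7 without control replicate 2 or knockdown replicate 2, where their log2 fold changes were 0.79, −1.16 and −1.04. Without knockdown replicate 1 that of KRT7 was −2.22.

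PHGDH, the enzyme that commits 3-phosphoglycerate to serine, was the most abundant synthesis transcript per length in every library. It had 202 and 268 CPM in knockdown libraries 1 and 2, against 395 and 447 CPM in control libraries 1 and 2. Both knockdown libraries lay below both control libraries, as was the case for 30.3% of all tested transcripts. The higher knockdown library was still well under the lower control library. The mean was 235 ± 46.9 CPM in knockdown cells and 421 ± 37.2 CPM in control cells (SD, n = 2 each). The log2 fold change was −0.84 ± 0.18 (SE), with a 95% interval of −1.22 to −0.46 and adjusted p = 0.00521 in edgeR's test. Its counts ranged from 3053 to 7236.

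PSAT1, the aminotransferase of the second step, had 63.7 and 56.7 CPM in knockdown libraries and 121 and 134 CPM in control libraries. The replicates of each group lay close together and the groups did not overlap, as for 30.3% of all tested transcripts on the lower side. The log2 fold change was −1.08 ± 0.18 (95% interval −1.46 to −0.70, adjusted p = 0.00112 in edgeR's test), a 2.12-fold decrease. PSAT1 has 2 RefSeq mRNA accessions and 4 annotated processed pseudogenes (PSAT1P1 to PSAT1P4), and the sources used here do not give how reads shared with them were treated.

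PSPH, the phosphatase of the final step, had 197 and 187 CPM in knockdown libraries, against 150 and 163 CPM in control libraries. Both knockdown libraries lay above both control libraries, as was the case for 29.3% of all tested transcripts. The log2 fold change of 0.29 ± 0.16 did not pass (adjusted p = 0.236 in edgeR's test). Its 95% interval ran from −0.06 to 0.64, which leaves room for a rise of that size but not for a decrease like those of PHGDH or PSAT1. PSPH has an unprocessed pseudogene (PSPHP1) and 21 RefSeq mRNA accessions in the newer annotation, and the value is that of its only row here.

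The row of MTHFD1L, the gene of the mitochondrial formate-producing enzyme, had 35 and 27 counts in knockdown libraries and 94 and 67 in control libraries. These correspond to 2.31 and 1.57 CPM in knockdown libraries and 5.93 and 4.14 CPM in control libraries. The groups did not overlap, which 30.3% of all tested transcripts also showed on the lower side. The log2 fold change was −1.38 ± 0.43 (95% interval −2.31 to −0.44, adjusted p = 0.0421 in edgeR's test). The row is 1 of 12 RefSeq mRNA accessions of the gene and has a length of 1049 bases. Whether this transcript encodes the full enzyme was not examined. The gene also has 2 antisense genes annotated inside it, and the libraries do not keep strand. The row therefore says little on the gene as a whole. The call was lost with DESeq2 (adjusted p = 0.0596), without knockdown replicate 2 (−1.11, adjusted p = 0.182) and without control replicate 1 (−1.09, adjusted p = 0.199). Its adjusted p ran from 0.0109 to 0.199 over 10 alternatives.

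SDS, the serine dehydratase, showed the largest change of the 6. It had 5577 and 8267 counts in knockdown libraries and 1636 and 971 counts in control libraries. As CPM, these were 369 and 481 in knockdown libraries against 103 and 60.0 in control libraries. The lower knockdown library lay far above the higher control library, although the control libraries themselves differed widely. Of all tested transcripts 29.3% had both knockdown libraries above both control libraries. The mean was 425 ± 79.7 CPM in knockdown cells and 81.7 ± 30.6 CPM in control cells (SD, n = 2 each). The log2 fold change was 2.38 ± 0.24 (95% interval 1.86 to 2.90, adjusted p = 3.80e-05 in edgeR's test), and by size of increase SDS ranked 112 among 12337 transcripts. The gene body overlaps that of SDSL, a serine dehydratase-like gene on the opposite strand, in a newer annotation. The SDSL row had 4 and 9 counts in knockdown libraries and 7 and 0 in control libraries.

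GLDC, the glycine decarboxylase, had 165 and 160 CPM in knockdown libraries, against 84.0 and 109 CPM in control libraries. The knockdown libraries were nearly equal and both lay above the control libraries, as for 29.3% of all tested transcripts. The log2 fold change was 0.75 ± 0.18 (95% interval 0.36 to 1.14, adjusted p = 0.0111 in edgeR's test). Without control replicate 1, the lower of the control libraries, it was 0.58 and did not pass (adjusted p = 0.162, among values from 6.42e-06 to 0.162 over 11 alternatives). The annotation holds a transcribed processed pseudogene of the gene (GLDCP1).

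The authors' deposited table gives log2 fold changes of 2.40 for SDS (q-value 4.82e-07), 0.77 for GLDC (2.82e-05), −0.82 for PHGDH (3.03e-06) and −1.06 for PSAT1 (1.67e-10). For MTHFD1L the authors' deposited table has −1.36 with a q-value of 0.0184, and for PSPH 0.31 with a q-value of 0.0751, also above the threshold.

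Divided by transcript length, the order of the 6 transcripts differed between the groups. These values are levels in RPKM (CPM per kilobase of transcript), with lengths from GENCODE. In knockdown cells SDS stood first with 230 and 300 RPKM, followed by PHGDH with 96.3 and 128 RPKM and PSPH with 92.4 and 87.7 RPKM. GLDC came next with 42.3 and 41.0 RPKM, then PSAT1 with 29.1 and 25.9 RPKM and MTHFD1L with 2.21 and 1.499 RPKM. No neighbours in this order overlapped over the 2 libraries. In control cells PHGDH was first with 188 and 213 RPKM, then PSPH with 70.5 and 76.6 RPKM. PSAT1 with 55.3 and 61.1 RPKM and SDS with 64.3 and 37.4 RPKM overlapped each other, the other neighbours did not, and GLDC followed with 21.5 and 27.9 RPKM and MTHFD1L with 5.66 and 3.95 RPKM. Levels of PSAT1, PSPH and MTHFD1L, genes with several accessions, may be understated if reads shared by isoforms were not counted.

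Set against each synthesis enzyme within a library, both breakdown enzymes were relatively higher after the knockdown. The ratio of SDS to PHGDH, in RPKM, was 2.38 and 2.34 in knockdown libraries against 0.341 and 0.175 in control libraries, so that the more abundant of these transcripts was SDS in knockdown cells and PHGDH in control cells. The ratio of SDS to PSAT1 was 7.88 and 11.6 in knockdown libraries, against 1.16 and 0.612 in control libraries. GLDC to PSAT1 stood at 1.45 and 1.58 in knockdown libraries, against 0.389 and 0.457 in control libraries. The smallest shift was that of GLDC to PSPH, with 0.458 and 0.467 in knockdown libraries and 0.305 and 0.364 in control libraries. In none of the 6 ratios did the groups overlap. For SDS and GLDC against PHGDH and PSAT1 this was fixed by the single transcripts, which did not overlap and moved in opposite directions. The ratios share transcripts and are not 6 separate observations. These ratios describe genes chosen with earlier results known and were not tested, and 2 libraries against 2 could not give an exact two-sided p below 0.333.

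**Figure D2:**
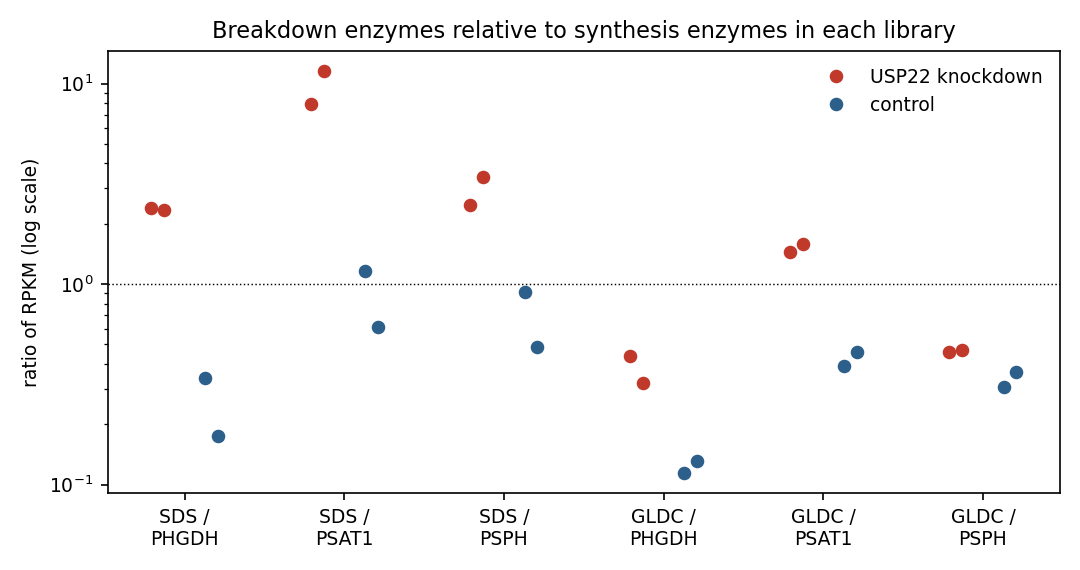
Ratio of RPKM (log axis) of SDS and GLDC to each of the 3 synthesis enzymes in every library, with knockdown libraries in red on the left of each pair and control libraries in blue on the right. SDS exceeds PHGDH in both knockdown libraries (2.38 and 2.34) and is below it in both control libraries (0.341 and 0.175).

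Other genes of folate and one-carbon metabolism were mixed. Of 19 genes 12 were tested, of which 3 rose (25%), 1 fell (8.33%) and 8 missed the threshold, beside 8.49% higher and 10.2% lower among all tested transcripts. The median log2 fold change was 0.41 against 0.000736 over all tested transcripts. MTHFD1, the cytosolic trifunctional folate enzyme, had 333 and 331 CPM in knockdown libraries and 121 and 151 CPM in control libraries (log2 fold change 1.29 ± 0.17, adjusted p = 0.000255 in edgeR's test). Its change was thus opposite in sign to that of the MTHFD1L row, which has low counts and a length of 1049 bases. ATIC, which uses formyl folate in the last steps of purine synthesis, had 719 and 696 CPM in knockdown libraries against 362 and 416 CPM in control libraries (0.86 ± 0.15, adjusted p = 0.00203). TYMS, which makes thymidylate, had 212 and 248 CPM in knockdown libraries against 116 and 159 CPM in control libraries (0.74 ± 0.19, adjusted p = 0.0146). FPGS, which adds glutamates to folate, fell at low counts, with 29 and 44 in knockdown and 94 and 84 in control libraries (−1.31 ± 0.40, adjusted p = 0.0363). Without control replicate 1 neither TYMS (0.54, adjusted p = 0.191, range 2.67e-06 to 0.191 over 11 alternatives) nor FPGS (−1.20, adjusted p = 0.106, range 0.0104 to 0.14) passed. FPGS also missed the threshold without knockdown replicate 1 (−1.08, adjusted p = 0.14) and with DESeq2 (adjusted p = 0.0517).

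Of 18 other genes that make, use or degrade serine and glycine, 13 were tested. Of these 2 rose (15.4%), 1 fell (7.69%) and 10 missed the threshold, against 8.49% higher and 10.2% lower over all tested transcripts, and the median log2 fold change was −0.13. GCSH, the lipoyl carrier protein that works with GLDC in glycine cleavage, had 40.0 and 45.7 CPM in knockdown libraries against 21.8 and 26.3 CPM in control libraries (0.83 ± 0.22, adjusted p = 0.0176). PIPOX, a peroxisomal oxidase that turns sarcosine into glycine, had 36.2 and 42.5 CPM in knockdown libraries against 19.8 and 21.3 CPM in control libraries (0.93 ± 0.22, adjusted p = 0.01). PTDSS1, which puts serine into phosphatidylserine, fell, with 56.4 and 48.3 CPM in knockdown libraries against 92.1 and 106 CPM in control libraries (−0.92 ± 0.19, adjusted p = 0.0043). Without control replicate 1 the calls of GCSH (0.71, adjusted p = 0.153, range 0.000404 to 0.153) and PIPOX (0.89, adjusted p = 0.065, range 0.000122 to 0.065) were lost.

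A list of 20 genes, called the carrier list here, held mainly transporters of serine, glycine and other neutral amino acids. Of the 20 genes 15 were tested, of which 1 rose (6.67%), 4 fell (26.7%) and 10 missed the threshold, where 8.49% rose and 10.2% fell among all tested transcripts, and the median log2 fold change was −0.42. The list also held the mitochondrial iron carrier SLC25A28 (0.49, not past the threshold), and without it the median was −0.44 over 14 transcripts. Further members were the serine incorporator genes SERINC1 (−0.42), SERINC2 (−0.76), SERINC3 (−0.47) and SERINC5 (0.02), none past the threshold. The median of the full list was the value of SERINC1, so it does not describe amino acid transporters alone. SLC7A5, the large neutral amino acid exchanger LAT1, had 872 and 879 CPM in knockdown libraries and 1939 and 2479 CPM in control libraries (−1.34 ± 0.16, adjusted p = 0.00012). SLC1A4, a carrier of serine, alanine and cysteine, had 15.8 and 20.4 CPM in knockdown libraries against 38.7 and 44.5 CPM in control libraries (−1.20 ± 0.23, adjusted p = 0.00305). The sideroflexins SFXN2 and SFXN3, members of a mitochondrial family that includes a serine carrier, moved in opposite directions. SFXN2 rose (1.10 ± 0.20, adjusted p = 0.00211), with 72.4 and 62.0 CPM in knockdown libraries against 30.4 and 32.4 CPM in control libraries, while SFXN3 fell (−0.96 ± 0.16, adjusted p = 0.00159), with 185 and 156 CPM in knockdown libraries against 321 and 340 CPM in control libraries. SLC38A5, a carrier of glutamine, serine and glycine, was counted 15 and 18 times in knockdown libraries and 35 and 84 times in control libraries (−1.85 ± 0.56, adjusted p = 0.0342). Its call was lost with limma-voom (adjusted p = 0.07) and without control replicate 2 (−1.09, adjusted p = 0.365), with adjusted p between 0.00131 and 0.365 over 10 alternatives.

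**Figure D3:**
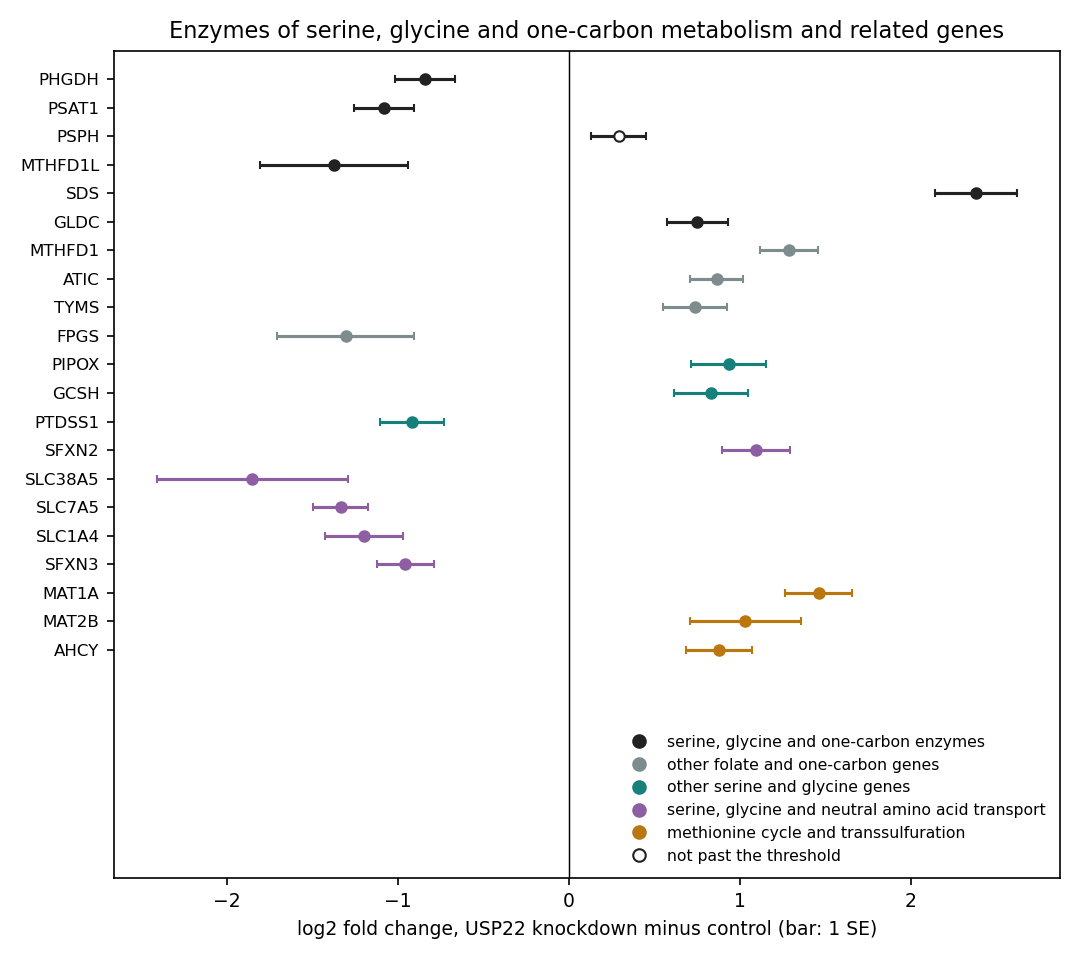
Log2 fold changes of USP22 knockdown over control (points; bars are 1 SE) of the 6 enzymes in black and of the named transcripts of 4 related lists in colour, those past the threshold filled. SDS stands at 2.38 and PSAT1 at −1.08, and PSPH at 0.29 is the only open point.

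The methionine cycle takes one-carbon units from folate and passes them on as methyl groups, and transsulfuration draws homocysteine from it. Of 12 genes of the cycle, of transsulfuration and of the connected choline and betaine steps 10 were tested. Of these 3 rose (30%), 0 fell and 7 missed the threshold, where 8.49% rose and 10.2% fell among all tested transcripts. The median log2 fold change was 0.39. MAT1A, the methionine adenosyltransferase of adult liver, had 183 and 261 CPM in knockdown libraries and 75.6 and 85.6 CPM in control libraries (1.46 ± 0.20, adjusted p = 0.00029). AHCY, which hydrolyses S-adenosylhomocysteine, had 73.4 and 90.1 CPM in knockdown libraries against 43.3 and 45.7 CPM in control libraries (0.88 ± 0.19, adjusted p = 0.00667). MAT2B, a regulatory subunit, rose at no more than 176 counts in a library (1.03 ± 0.32, adjusted p = 0.0411). It no longer passed without control replicate 1 (0.90, adjusted p = 0.163), control replicate 2 (1.20, adjusted p = 0.0535) or knockdown replicate 2 (0.91, adjusted p = 0.153), and its adjusted p lay between 0.0106 and 0.163 over 11 alternatives.

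SDS belongs to the amino acid breakdown and gluconeogenesis genes of hepatocytes, and 15 other such genes were set beside it. Of these 12 were tested, of which 4 rose (33.3%), 0 fell and 8 missed the threshold. The shares among all tested transcripts were 8.49% higher and 10.2% lower. The median log2 fold change of the list was 0.35. TDO2, the first enzyme of tryptophan breakdown, had 15.3 and 19.4 CPM in knockdown libraries against 3.85 and 3.77 CPM in control libraries (2.19 ± 0.30, adjusted p = 0.000329). The tyrosine aminotransferase TAT (1.94) and the urea cycle enzyme CPS1 (1.47) were the next largest. HGD, the homogentisate dioxygenase of tyrosine breakdown, had 356 and 396 CPM in knockdown libraries and 164 and 158 CPM in control libraries (1.22 ± 0.16, adjusted p = 0.000235). The gluconeogenic enzyme PCK1, picked with its values known, missed the threshold, with 178 and 201 CPM in knockdown libraries against 246 and 92.6 CPM in control libraries (adjusted p = 0.779), and its groups overlapped.

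PHGDH, PSAT1 and several amino acid carriers are known targets of ATF4, the transcription factor of the integrated stress response. Of 11 genes of that response 8 were tested. Of these 6 fell (75%), 0 rose and 2 missed the threshold, beside 10.2% lower and 8.49% higher among all tested transcripts. The median log2 fold change was −1.31. SESN2, a stress-induced inhibitor of mTORC1 signalling, had 116 and 118 CPM in knockdown libraries and 302 and 326 CPM in control libraries (−1.42 ± 0.16, adjusted p = 8.86e-05). The row of the asparagine synthetase ASNS had 2.98 and 3.26 CPM in knockdown libraries against 11.05 and 10.1 CPM in control libraries (−1.76 ± 0.33, adjusted p = 0.00267). PPP1R15A (−2.01) and CHAC1 (−1.78) were the largest decreases of the list. ATF4 itself, picked with its values known, had 11.5 and 24.3 CPM in knockdown libraries against 14.0 and 14.3 CPM in control libraries and did not pass (adjusted p = 0.516). Not every serine synthesis or carrier transcript fell. PSPH (log2 fold change 0.29) and the amino acid carrier SLC7A11 (0.08), picked with their values known, did not pass the test. Of the 15 tested genes of the carrier list 4 fell and 1 rose. The part of ATF4 in these values and in those of PHGDH and PSAT1 was not tested.

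**Figure D4:**
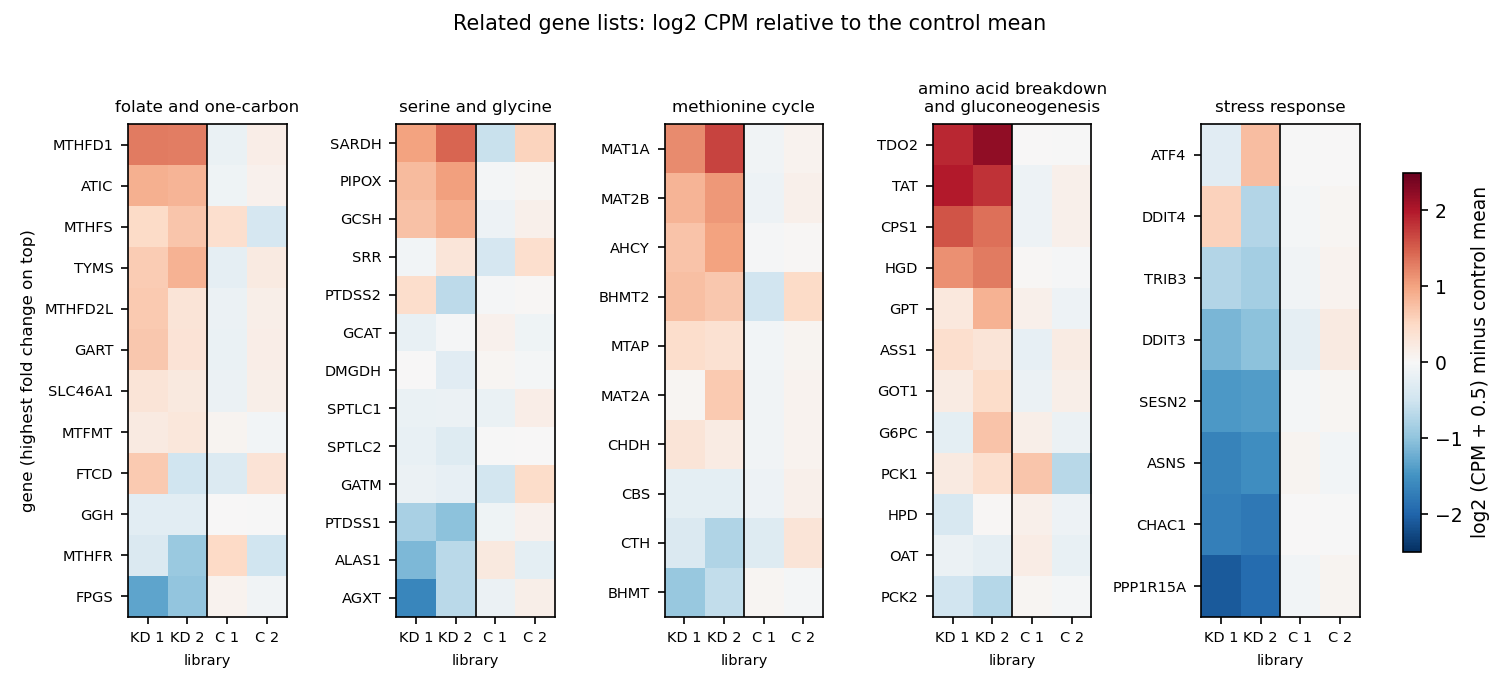
Level of every tested transcript of 5 related lists in each library, as log2 (CPM + 0.5) minus the mean of the control libraries (colour scale), with knockdown libraries (KD) left of control libraries (C). MTHFD1 is high in both knockdown libraries at the top of the folate panel, and PPP1R15A and CHAC1 are low in both at the foot of the stress response panel.

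The transcripts whose 4 library values most resembled those of SDS were looked up among 5725 others with a mean of at least 10 CPM. Likeness was the Euclidean distance between the log2 CPM values, each centred on its own mean, over 4 libraries, so that any transcript with a similar rise scores well. The closest were IQGAP2 at a distance of 0.480, TOMM40L at 0.573 and TTC6 at 0.605. IQGAP2 had 23.1 and 26.4 CPM in knockdown libraries and 6.95 and 4.82 CPM in control libraries. Its control libraries stood in the same order as for SDS, which the choice by distance itself favours.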

How the data were processed

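RNA of 4 libraries was sequenced (NEBNext Ultra RNA kit, which does not mark strand, per the labels' protocols). The authors deposited 1 table of raw counts per RefSeq mRNA accession, with the log2 fold change of their own comparison and its p-value and q-value, made with a tool not given in the sources used here. bcl2fastq, HISAT2 2.1.0, HTSeq and the build hg19 are named in the submitters' processing notes, with counting settings not given in the sources used here.

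Transcripts were kept by filterByExpr (minimum count 10), which left 12337 and removed 2203. Knockdown minus control was tested with edgeR 4.0.16 (R 4.3.3; TMM, glmQLFit, glmQLFTest, no covariate), with Benjamini-Hochberg adjustment over all tested transcripts and a threshold of 0.05. The common coefficient of biological variation was 22.1%. SE is the log2 fold change divided by the square root of F. The libraries of a group differed beyond counting noise (chi-square per degree of freedom 36.2 in knockdown and 19.3 in control).

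The row of a gene was its accession with the highest summed count. RPKM used GENCODE v29 transcript lengths matched by RefSeq accession. The enzymes and the related lists were chosen with earlier results of these data known. Named from each list were up to 4 members in each direction, taken by size of change among those that passed. Of the lists, 1 gene is not reported here and was left out of its counts. Alternatives were other scaling and filters, a block for the replicate number, each library left out in turn, DESeq2 1.42.0, limma-voom (limma 3.58.1) and rows summed per gene.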

Additional observations from a re-analysis of the deposited data

How the results depend on the processing

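Under 11 alternatives SDS, PHGDH, PSAT1 and PSPH kept their direction and their side of the threshold. GLDC and MTHFD1L kept their direction. Leaving out 1 library gave log2 fold changes of 0.58 to 0.97 for GLDC and of −1.64 to −1.09 for MTHFD1L, and 1 to 2 of the enzymes were then called higher. The count of 1 came without control replicate 1. With DESeq2 MTHFD1L had −1.37 and did not pass, and under the filter of 5 CPM in 2 libraries it was not tested. Fits without a library leave 1 library in a group, which is assumed to vary like the other group, and have fewer residual degrees of freedom. For a like ratio of change to error, their adjusted p was nonetheless far smaller than in the main fit. Their calls are therefore not stricter than those of the main fit, and the adjusted p of the 2 kinds of fit cannot be compared. The causes were not tested.

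With the replicate number as a block, 3531 transcripts were called instead of 2304, with 2 of the enzymes higher and 3 lower as before. That fit leaves 1 residual degree of freedom, and its adjusted p is also not comparable with that of the main fit. It gave the low end of several ranges of adjusted p above, and the larger count is not read as a gain from pairing. SDS then had a log2 fold change of 2.42 and PHGDH −0.85. The deviations of same-numbered libraries correlated with r = 0.153 across transcripts, and the labels do not say that a number marks a shared culture or day. Without control replicate 1 the transcripts called higher over the whole table were 685, against 1047 with all libraries.

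For 32 other named transcripts, 336 of 351 alternative values stayed on the same side of the threshold and 15 did not, with 0 reversed. With 2 libraries per group the spread is poorly known, and rows of low counts (MTHFD1L, FPGS, SLC38A5) carry wide errors.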
